A study of Drosophila melanogaster with 6 samples.

Results

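The proteasome subunits measured here are the 40 genes whose array probe set names 1 gene with a symbol that begins with Prosalpha or Prosbeta, or with Rpn or Rpt and a digit, out of 11982 genes with such a probe set. They comprise 12 core subunits, 14 regulatory subunits and 14 paralogues whose symbols carry an R or a T after the subunit number. Each of the 40 genes had 1 probe set on the array, so no choice between probe sets was needed. Adult females of the fly strain w1118 were put on food at an age of 3 to 5 days, kept in normal oxygen on a regular diet (RD, the commercial Jazz-Mix food) or on a high-fat diet (HFD, with 20% coconut oil by weight per volume) for 1 week, and frozen as whole bodies aged 10 to 12 days. All 6 samples share the strain, the sex, the oxygen level and the handling, and differ by diet, with 3 Affymetrix arrays for each. Separate vials are not stated for the 3 samples of a diet, and the p-values cover the spread among those samples only, which may be technical.

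The proteasome is the large protease that breaks down proteins tagged with ubiquitin. Its core is a barrel of stacked rings: the outer alpha rings gate the entry, and the inner beta rings hold the sites that cut. A regulatory particle caps the barrel. Its base contains the Rpt ATPases, which unfold the substrate and feed it in, and its lid contains most of the Rpn subunits, among them Rpn11, which removes the ubiquitin chain. Flies also carry extra copies of many subunit genes, several of which are known for expression in the testis. A change in subunit RNA alone does not give the amount of assembled proteasome.

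In the signals as deposited, a week on the high-fat diet moved the 26 canonical subunits little. Of these, 1 fell, Prosalpha5, and none rose, which is 3.85% of them. Across the whole array 19.5% of 11261 tested probe sets were called, 6.63% as lower and 12.9% as higher (limma, adjusted p under 0.05). The mean HFD signal of a canonical subunit was 81.9% to 104% of its mean RD signal. Fold changes are differences, HFD minus RD, in log2(signal + 1), and their median was -0.091 over the 26 subunits and 0.0083 over all tested probe sets. All 26 subunits were among the 2815 brightest tested probe sets. Of those 349 were called lower and 212 higher, and their median was -0.045. The standard errors of the fit were 0.044 to 0.065, and for 24 of the 26 subunits the 95% interval excluded a fall of more than 20%. The highest upper bound of any interval was 0.20, for Rpn2. These intervals hold for the scaling as deposited. After centring each array on its median, the median of the 26 subunits was -0.30 and 25 were called lower. In a whole fly, fewer cells of a type and less RNA per cell cannot be told apart. All 14 paralogues had signals too low to be tested.

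**Figure D1:**
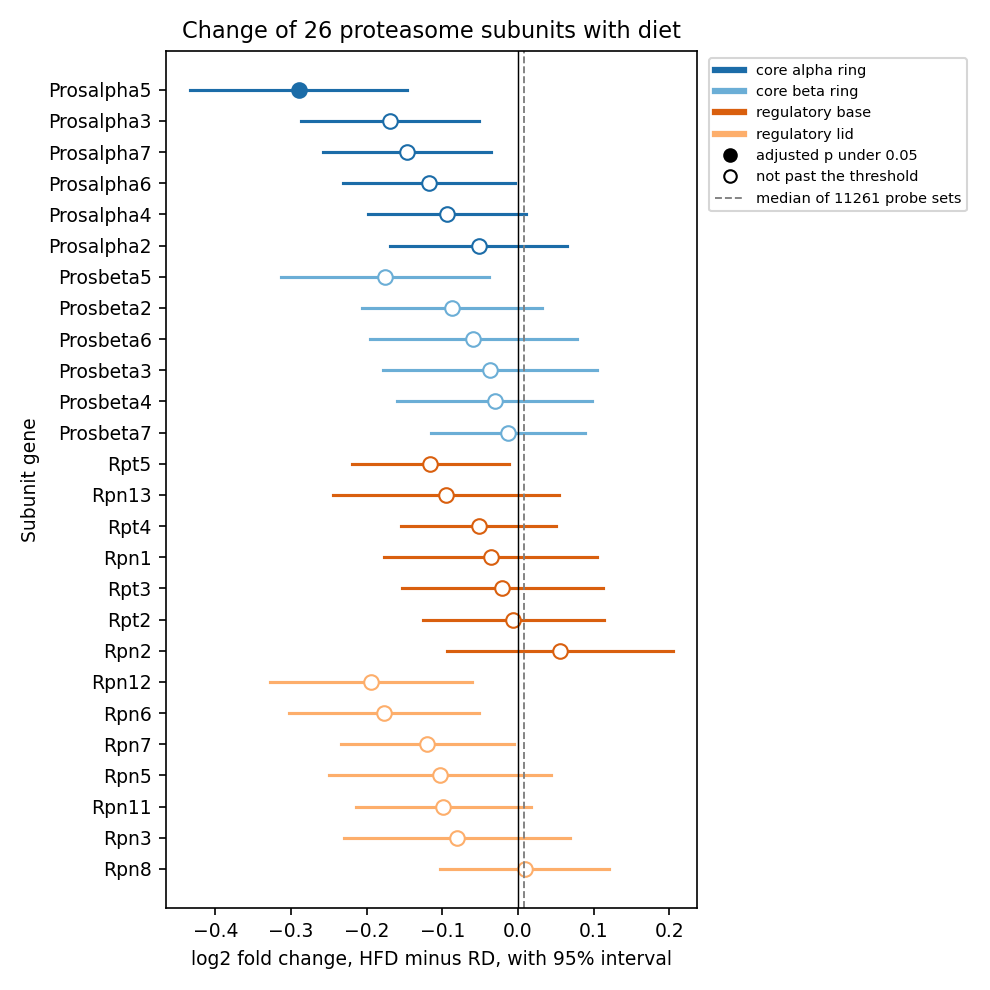
The log2 fold change, HFD minus RD, of each canonical proteasome subunit is plotted with its 95% interval, grouped by ring or subcomplex; a filled point passed the threshold. Prosalpha5, at -0.29, is the filled point, and 24 of the 26 points lie below 0.

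The alpha ring held the called subunit. Prosalpha5 had signals of 3743, 4080 and 3733 on RD arrays 1, 2 and 3 and of 2923, 3233 and 3304 on HFD arrays 1, 2 and 3. Every HFD signal of Prosalpha5 lay below every RD signal, and the mean went from 3852 ± 197 to 3153 ± 202 (SD, n = 3 arrays per diet). The log2 fold change of Prosalpha5 was -0.29 ± 0.062 (SE of limma; adjusted p = 0.0167; 95% interval -0.43 to -0.15). Without any 1 of the 6 arrays Prosalpha5 still passed, with log2 fold changes of -0.32 to -0.24 and adjusted p of 0.0196 to 0.0460. Its call was lost once the 3'/5' signal ratio of control transcripts was added as a covariate (-0.20, limma adjusted p = 0.272). Under that model 0.471% of all tested probe sets were called lower.

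The other alpha subunits form the same ring and did not pass. Prosalpha3 had signals of 2857, 3099 and 2896 in RD and of 2528, 2675 and 2669 in HFD, with no overlap (-0.17 ± 0.051, limma adjusted p = 0.0531). Prosalpha7 went from 3189 ± 107 to 2881 ± 95.7 (-0.15 ± 0.048, limma adjusted p = 0.0688) and Prosalpha6 from 2312 ± 99.99 to 2130 ± 40.2 (-0.12 ± 0.049, limma adjusted p = 0.131). These HFD arrays also lay below the RD arrays. Prosalpha4 was at -0.094 (adjusted p = 0.179) without overlap, and Prosalpha2 was at -0.052 (adjusted p = 0.490) with overlapping diets. Over the 6 alpha subunits the median log2 fold change was -0.13. Prosalpha1 shares its probe set with a paralogue and was not analysed here.

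The beta ring carries the proteolytic activity, and none of its 6 measured subunits passed, while 1 had an unadjusted p under 0.05 (16.7%). Over all tested probe sets that share was 35.5%, with 14.6% lower. Prosbeta5, whose site cuts after hydrophobic residues, had signals of 3194, 3496 and 3205 in RD and of 2749, 2945 and 3071 in HFD. The diets did not overlap for this catalytic subunit, and the log2 fold change of -0.18 ± 0.059 missed the threshold (limma adjusted p = 0.0756). Prosbeta2, the subunit that cuts after basic residues, had signals of 2706, 3009 and 2806 in RD and of 2630, 2697 and 2686 in HFD. Its HFD signals lay just below those of RD, and the difference was within the error of the fit (-0.088 ± 0.052, limma adjusted p = 0.258; 95% interval -0.21 to 0.031). The third catalytic subunit, Prosbeta1, is unnamed here. The structural subunits Prosbeta3, Prosbeta4, Prosbeta6 and Prosbeta7 overlapped between diets, with log2 fold changes of -0.037, -0.031, -0.059 and -0.013. Prosbeta7 had the narrowest interval of the core subunits, -0.12 to 0.089. The median log2 fold change of the beta subunits was -0.048.

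The base of the regulatory particle had 7 measured members, of which none passed, with 1 at an unadjusted p under 0.05. That was 14.3%, beside 35.5% of all tested probe sets, with 14.6% lower. The ATPase Rpt5 had signals of 2065, 2100 and 2106 in RD and of 1878, 1933 and 1978 in HFD. The diets were apart for Rpt5, whose log2 fold change was -0.12 ± 0.045 (limma adjusted p = 0.107). Rpt4 had signals of 1795, 1858 and 1803 in RD and of 1741, 1777 and 1745 in HFD. The 2 diets of Rpt4 were separated by a gap smaller than the range within either (-0.052 ± 0.044, limma adjusted p = 0.430). Rpt2 and Rpt3 were at -0.0061 and -0.021, with overlapping signals, and their 95% intervals were -0.13 to 0.11 and -0.15 to 0.11. Rpn1, the scaffold that docks shuttle factors, averaged 972 ± 26.6 in RD and 949 ± 53.97 in HFD. Rpn13, a ubiquitin receptor, was at -0.095 ± 0.065 (limma adjusted p = 0.323). Rpn2, the scaffold that holds Rpn13, had signals of 2369, 2103 and 2433 in RD and of 2342, 2337 and 2486 in HFD. RD array 2 was the lowest for Rpn2 and the highest for most other subunits. The log2 fold change of Rpn2, 0.055 ± 0.065, was the highest of the 26 (limma adjusted p = 0.565), and it was -0.008 without RD array 2. The median log2 fold change of the base was -0.036.

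The lid had 7 measured members, and none passed at the threshold, while 3 had an unadjusted p under 0.05. That was 42.9%, beside 35.5% of all tested probe sets, with 14.6% lower. Rpn12 had signals of 2194, 2424 and 2280 in RD and of 1902, 2061 and 2066 in HFD. All HFD signals of Rpn12 were below those of RD, and the log2 fold change of -0.19 ± 0.058 lay just outside the threshold (limma adjusted p = 0.0514). Rpn6, which in yeast clamps the lid to the core, had signals of 3173, 3536 and 3245 in RD and of 2856, 2915 and 3027 in HFD. Its diets were apart as well (-0.18 ± 0.055, limma adjusted p = 0.0566). Rpn7, another scaffold of the lid, was at -0.12 (adjusted p = 0.128) without overlap. Rpn11, the deubiquitinating subunit, went from 2958 ± 63.2 to 2764 ± 131 (-0.099 ± 0.050, limma adjusted p = 0.198), also without overlap. Its partner in the lid, Rpn8, averaged 1903 ± 31.1 in RD and 1915 ± 71.0 in HFD, with overlapping arrays (0.0090 ± 0.048, limma adjusted p = 0.907). Rpn3 and Rpn5 overlapped too, at -0.081 and -0.10. The median log2 fold change of the lid was -0.10. Without RD array 1, Rpn12, Rpn6 and Prosalpha3 passed as well, with limma adjusted p of 0.0371, 0.0414 and 0.0491. That raised the count of lower subunits from 1 to 4. The share of all tested probe sets called lower was then 7.46%, in place of 6.63%.

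The core and the regulatory particle had nearly the same median, -0.091 for the 12 core subunits and -0.088 for the 14 regulatory subunits. All 12 core estimates and 12 of the 14 regulatory estimates were below 0. Among all tested probe sets 48.7% of the estimates were below 0, and in the 2815 brightest of them, which held all 26 subunits, 61.0% were. An unadjusted p under 0.05 was reached by 9 of the 26 subunits, 34.6%, all of them lower in HFD. Over all tested probe sets the share was 35.5%, with 14.6% lower. The HFD arrays lay wholly below the RD arrays for 13 of the 26 and wholly above for none. Over all tested probe sets the diets were apart for 42.0%, lower for 18.7% and higher for 23.2%. The 26 estimates share arrays and are not independent of each other. The spread within a diet was small, with a median SD of 0.061 over the subunits on the log2 scale, against 0.074 in the 2815 brightest and 0.12 over all tested probe sets.

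The subunits moved together from array to array. With each subunit set to its own mean over the 6 arrays, the median over the 26 was 0.017, 0.11 and 0.039 on RD arrays 1, 2 and 3 and -0.0995, -0.035 and -0.015 on HFD arrays 1, 2 and 3, in log2 units. RD array 2 was thus the highest array and HFD array 1 the lowest. RD array 2 was the highest RD array for 19 of the 26 subunits and HFD array 1 the lowest HFD array for 24, where the shares over all tested probe sets were 42.6% and 52.7%. Without RD array 2 the median log2 fold change of the 26 was -0.047 in place of -0.091, and that of the regulatory subunits -0.042 in place of -0.088. The actin control's signal at its 3' end over that at its 5' end, which rises when the RNA or its labelled copy is shorter, was 7.85, 4.90 and 5.69 on the RD arrays and 9.29, 8.35 and 8.93 on the HFD arrays. The lowest ratio was on RD array 2 and the highest on HFD array 1. HFD array 3 had a higher ratio than HFD array 2. It was the highest HFD array for 19 of the 26 subunits and for 56.4% of all tested probe sets. When the mean log2 3'/5' ratio over 3 controls (actin, GAPDH, eIF-4a) was added to the model, the median of the 26 subunits was -0.033, none passed, and 8 estimates were above 0. Whether RNA length contributes to the subunits' values was not tested beyond that model.

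**Figure D2:**
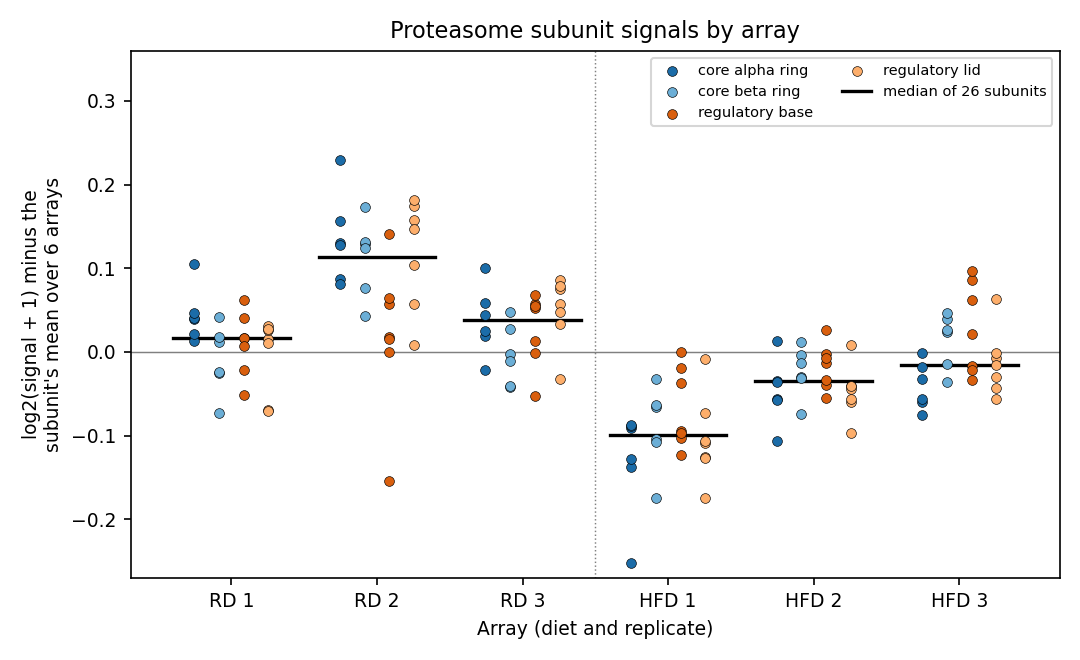
Each point is 1 canonical subunit on 1 array, as log2(signal + 1) minus that subunit's mean over the 6 arrays, with subunits coloured by ring or subcomplex and the median of the 26 as a bar. The bars run from 0.11 on RD array 2 to -0.0995 on HFD array 1.

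The median of the subunits was below 0 under every scaling tried, but its size and the number of calls depended on how the arrays were scaled. The deposited values were used as scaled by the authors, and the array medians were 52.8 to 55.3 in RD and 60.7 to 63.8 in HFD. Centring each array on its median shifted all tested probe sets by -0.21 in the median. Of the 26 subunits 25 were then called lower, Rpn2 being the exception, beside 35.7% of all tested probe sets. Relative to all tested probe sets, the median of the subunits was -0.099 as deposited and -0.026 after quantile normalization. Median centring shifts all probe sets of an array alike, so it leaves that difference unchanged by construction. The 2815 brightest tested probe sets had a median of -0.045 as deposited. After quantile normalization Prosalpha5 and Rpn6 were called lower, beside 10.2% of all tested probe sets, and 21 of the 26 estimates were below 0. Over all tested probe sets, 66.0% of the calls were higher and 34.0% lower as deposited, 52.0% and 48.0% after quantile normalization, and 19.5% and 80.5% after median centring.

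**Figure D3:**
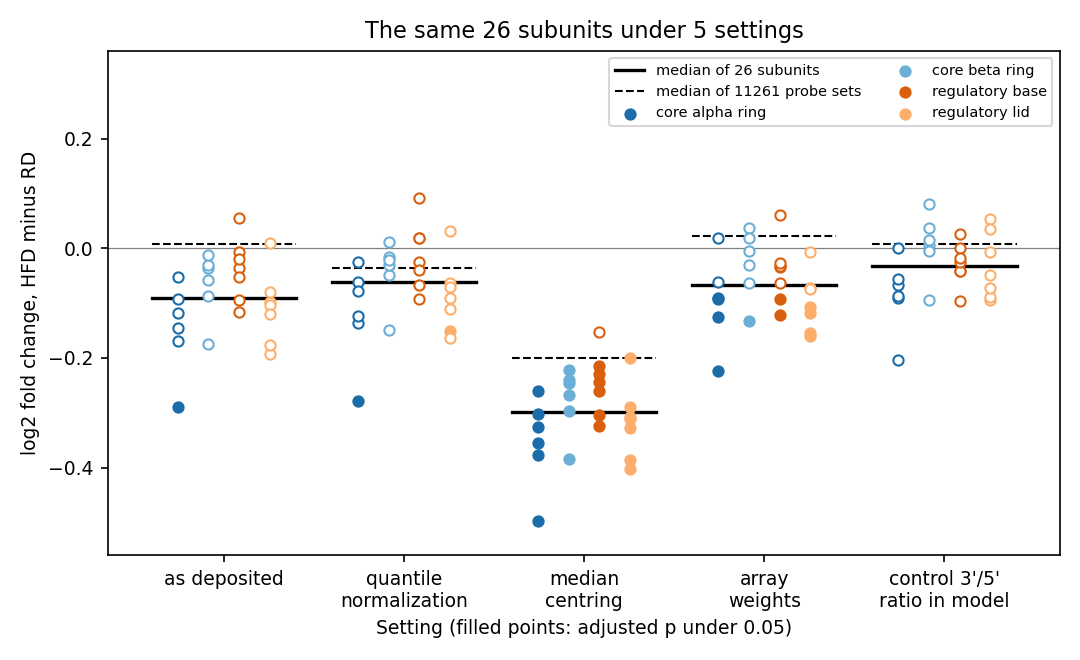
Log2 fold changes of the 26 canonical subunits are plotted under 5 settings, with filled points past the threshold, the median of the subunits as a solid bar and the median of all 11261 tested probe sets as a dashed bar. Under median centring both bars move down together, to -0.30 and -0.20, while no point is filled once the 3'/5' ratio of controls is a covariate.

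In the values as deposited, the medians of eggshell, muscle and neuron markers were far larger in size than that of the subunits, and those of female germline and male reproductive markers (-0.047 and 0.032) were not. Of 13 tested eggshell genes 11 fell, with a median log2 fold change of -0.82, and their summed signal was 82705 to 86125 in RD and 57786 to 61237 in HFD. Of 16 muscle genes 14 rose, with a median of 0.998 and summed signals of 10645 to 14030 in RD and 21966 to 25995 in HFD. Of 12 neuron genes 11 rose, with a median of 0.96 and summed signals of 2782 to 3578 and 4485 to 4726. Of 18 female germline genes 3 rose and 4 fell, with summed signals of 47698 to 49039 and 43999 to 46997. The yolk protein genes Yp1, Yp2 and Yp3, which mark the adult female, summed to 33642 to 34974 in RD and 26799 to 29901 in HFD, and 2 of the 3 fell (median -0.23). With the 3'/5' covariate the eggshell, muscle and neuron medians were -0.86, 0.78 and 0.62, and 2 eggshell, 6 muscle and 3 neuron genes were called, with no yolk or germline gene. Over the whole array that model called 213 probe sets higher and 53 lower. The ovary, muscle and nervous system all use the proteasome, and the part of such tissue differences in the subunits' values was not tested.

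The paralogues with suffix R or T were dim on every array. Their 14 probe sets all had a mean below the level of the filter, a signal of 27.9, and of their 84 signals 1 lay above it. They were not tested, and the values given are a description of dim signals. The alpha paralogues Prosalpha3T, Prosalpha4T2 and Prosalpha6T had signals of 5.37 to 21.8, with overlapping diets. Prosalpha6T is known in flies for its role in sperm development, and its mean was 18.7 ± 3.32 in RD and 19.8 ± 3.17 in HFD. The beta paralogues Prosbeta2R1, Prosbeta2R2, Prosbeta4R1, Prosbeta4R2 and Prosbeta5R2 ranged from 0.87 to 21.02 and overlapped too. In the reference gene order 1 protein-coding gene lies between Prosbeta4R1 and Prosbeta4R2. The ATPase paralogues Rpt3R and Rpt4R had signals of 16.9 to 23.96 and of 3.54 to 18.3, and the lid paralogue Rpn12R of 9.13 to 17.3.

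For 3 of the 14 paralogues the diets did not overlap, 2 higher and 1 lower in HFD. Of the 7508 probe sets under the filter the diets were apart for 17.3%, higher for 10.5% and lower for 6.75%. Rpn13R had signals of 11.1, 9.18 and 9.25 in RD and of 16.4, 15.2 and 28.3 in HFD. HFD array 3 of Rpn13R was the only paralogue signal above the level of the filter. Prosbeta5R1 had signals of 0.72, 3.63 and 0 in RD and of 6.54, 3.86 and 7.82 in HFD. Prosalpha4T1 had signals of 9.39, 9.72 and 12.1 in RD and of 8.75, 2.54 and 3.30 in HFD. The signals of all 3 were too dim for a fold to be given, and no change is read from them. When the filter was left out, none of the 14 was called, beside 10.4% of 18769 probe sets. The smallest adjusted p of the 14 was 0.0713, for Rpn13R (limma).

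**Figure D4:**
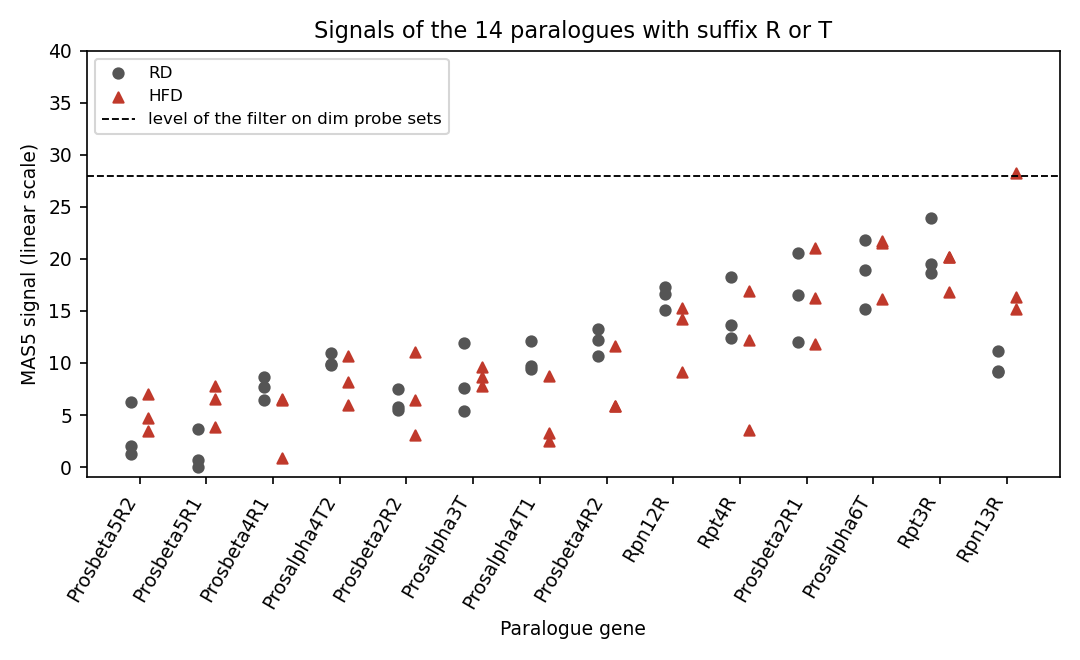
MAS5 signals of the 14 paralogues with suffix R or T are plotted on a linear scale for each of the 6 arrays, with circles for RD, triangles for HFD and the level of the filter as a dashed line at 27.9. The highest signal of Rpn13R, at 28.3 on an HFD array, lies above the line.

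Most male genes were dim as well. The array named 26 male reproductive genes, of which 17 stayed under that level on every array, and the summed signal of the 26 was 577 to 623 in RD and 553 to 630 in HFD. The sperm-tail gene dj, the lowest of the 26, was at 0 on 5 of the 6 arrays. The highest were Acp95EF, with signals of 115 to 134, and mia, with signals of 66.6 to 98.3. Of the 8 male genes tested none passed.

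Genes that work with the proteasome went in both directions. Of 45 tested genes on 7 lists, 5 fell and 2 rose, 15.6%, near the 19.5% over all tested probe sets, with a median log2 fold change of -0.087. These counts depended on scaling: 8 fell and 2 rose after quantile normalization, and 31 fell and none rose after median centring. Of all tested probe sets 10.2% and 35.7% were called lower under those 2 scalings. Among 7 assembly factors, activators and associated proteins, 1 fell. This was Pomp, which helps the core to assemble, which averaged 1608 ± 82.6 in RD and 1364 ± 59.9 in HFD (-0.24 ± 0.060, limma adjusted p = 0.0291). It passed without RD array 3 and lost its call without any other array (adjusted p of 0.0543 to 0.0875). The other 6 of that list were chosen for mention after their values were seen: Sem1, a small lid subunit outside the naming rule, was at -0.14 (adjusted p = 0.0597, and 0.0480 after quantile normalization), the deubiquitinase Uch-L5 at -0.16, the activator REG at -0.11, PI31 at -0.16, the deubiquitinase Usp14 at -0.016 and ntc at 0.035.

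Of 5 genes that control proteasome gene expression, 1 rose. This was cnc, whose protein is the fly relative of the mammalian factors that induce subunit genes. The signals of cnc were 1879, 1536 and 1573 in RD and 1964, 2066 and 2139 in HFD. The RD signals all lay below the HFD signals, with array 1 the closest, and the log2 fold change was 0.31 ± 0.082 (limma adjusted p = 0.0333). The call of cnc held without RD array 1 (0.40, adjusted p = 0.00306) and was lost when any other array was left out, with adjusted p of 0.0645 to 0.113.

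Of the 5 shuttle factors and members of the TER94 segregase, which pulls tagged proteins out of complexes and membranes, 2 fell and 1 rose. Npl4, a cofactor of TER94, had signals of 1656, 1651 and 1534 in RD and of 1990, 2095 and 1914 in HFD. It rose by 0.31 ± 0.056 on the log2 scale (limma adjusted p = 0.00919) and passed without any 1 of the arrays. TER94 itself fell, from 5400 ± 233 in RD to 4584 ± 324 in HFD (-0.24 ± 0.061, limma adjusted p = 0.0317), so that the segregase and its cofactor were called in opposite directions. Rad23, which carries tagged proteins to the proteasome, averaged 3038 ± 160 in RD and 2594 ± 92.1 in HFD (-0.23 ± 0.055, limma adjusted p = 0.0249). TER94 kept its call when RD array 1 or HFD array 3 was left out and lost it for the other 4 arrays (adjusted p of 0.0792 to 0.0922). Rad23 kept its call when RD array 1 was left out and lost it for the other 5 (0.0514 to 0.0854).

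Of 6 tested ubiquitin-conjugating E2 enzymes 1 fell, Ubc2. Its signals were 2353, 2438 and 2336 in RD and 1889, 1956 and 1985 in HFD, with every HFD signal below every RD signal. The log2 fold change of Ubc2 was -0.29 ± 0.046 (limma adjusted p = 0.00572), about that of Prosalpha5, and it passed without any 1 of the arrays. Of 4 tested genes that code for ubiquitin 1 fell, Ubi-p5E, which codes for ubiquitin repeats, by 0.17 ± 0.043 on the log2 scale (limma adjusted p = 0.0286). The E1 enzyme that activates ubiquitin was not among the tested genes. After quantile normalization Ubi-p5E did not pass (-0.12, limma adjusted p = 0.118). Like Rad23, Ubi-p5E kept its call when RD array 1 was left out and lost it for the other 5 arrays (adjusted p of 0.0511 to 0.0844). None of 11 genes of cullin-RING ligases, which tag proteins, passed; the smallest p was that of slmb (-0.20 ± 0.063, limma adjusted p = 0.0596). After quantile normalization slmb and Roc1b, a RING subunit, were called lower (limma adjusted p of 0.0373 and 0.0320), and after median centring 7 of the 11 were. None of 7 genes of the COP9 signalosome, a complex built like the lid, passed, with CSN8 at -0.12 (adjusted p = 0.246), while 5 were called lower after median centring. Median centring called 35.7% of all tested probe sets lower, and quantile normalization 10.2%. None of the 7 called genes on the pathway lists kept its call once the 3'/5' covariate was added. Over the whole array 213 probe sets were then called higher and 53 lower. The smallest adjusted p (limma) of the 7 genes was then 0.0906, for Ubc2. The fold changes of Npl4, Pomp, Ubc2 and Ubi-p5E were then 0.32, -0.25, -0.26 and -0.15, close to those without the covariate. Those of cnc, TER94 and Rad23 were smaller, at 0.14, -0.16 and -0.12. With median centring Npl4 and cnc were at 0.10 each and did not pass (adjusted p of 0.242 and 0.335).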

How the data were processed

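Whole-body RNA of w1118 females was measured on 6 Affymetrix arrays, 3 per diet, grouped by their titles. The authors deposited 1 linear intensity per probe set and array, from MAS5 per the submitters' processing notes (no version given). The 2% trimmed mean of an array was 326 to 342, per the deposited values. Without the 183 control probe sets, log2(signal + 1) was computed, and probe sets with a mean above the 40th percentile of 18769 (4.86 on the log2 scale, a signal of 27.9) were tested, 11261 in all. The comparison of diets used limma 3.58.1 (R 4.3.3; eBayes with an intensity trend, two-sided, Benjamini-Hochberg over 11261 probe sets, threshold 0.05), with no further normalization. The number of arrays limits the precision; detection calls were not used.

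Genes were named by the array annotation; all 40 members had the same symbol in the reference table by gene ID. By Affymetrix's suffix, the probe sets of 5 members (_s_at) and of 3 others (_a_at), among these Prosalpha5, may bind more than 1 transcript. Of 32 canonical subunits listed, 26 were measured; Prosbeta1, Rpt1, Rpt6, Rpn9 and Rpn10 are unnamed here and Prosalpha1 shares a probe set. All members were named, and from each other list up to 3 called genes or the 1 with the smallest p. Members and lists were chosen with earlier results of these data known. In a simulation of HFD against RD (11261 probe sets, 200 altered), differences of 0.25, 0.5, 1 and 2 (log2) were recovered for 30.0%, 80.0%, 100% and 100%, and 3.73% of the calls were false. Alternatives were other normalizations, values added, filters, variance models, weights, thresholds, the replicate block, a control 3'/5' covariate and leaving out each array; leaving out array 1 of both diets was added after seeing the data. Figures used Python 3.11.15 and matplotlib 3.10.9.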

Additional observations from a re-analysis of the deposited data

How the results depend on the processing

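Of the members' 520 values under alternatives, 437 kept direction and side of the threshold, 3 lost a call, 44 gained one and 36 changed sign. As deposited, 1 core and 0 regulatory subunits were lower and none was higher, with medians of -0.091 and -0.088; no alternative called a subunit higher. Lower core and regulatory subunits numbered 1 and 1 with quantile normalization, 12 and 13 with median centring (medians -0.30 and -0.30), 5 and 6 with array weights, 0 and 0 without a variance trend or at an adjusted p of 0.01, 4 and 2 at 0.1, and 0 and 0 under the covariate of control 3'/5' ratios (medians -0.030 and -0.033). Without 1 array they numbered 1 to 2 and 0 to 2, with medians of -0.11 to -0.061 and -0.12 to -0.042. Whether the replicate numbers pair the samples could not be decided from 3 arrays per diet. The correlations of same-numbered deviations were 0.072, 0.10 and 0.027. Those of the other array pairs were -0.19 to 0.12, the highest for RD array 3 with HFD array 2. With the replicate block 2 core and 1 regulatory subunits were lower, Prosalpha3, Prosalpha5 and Rpn12. That block called 1631 probe sets higher and 929 lower. All probe sets called higher and lower, 1449 and 747 as deposited, numbered 1245 and 1147 with quantile normalization, 972 and 4023 with median centring, 788 and 573 with the filter at the 60th percentile, 1355 and 463 without a trend, 3532 and 2597 with array weights, 213 and 53 with the 3'/5' ratio, 1290 lower at 0.1, 613 and 177 at 0.01, and 763 to 1867 and 245 to 840 without 1 array. Adding 16 or 50, robust eBayes and no filter kept both subunit counts, as did leaving out array 1 of both diets. The estimation of array weights stopped before it converged, so values with array weights are approximate. The mean over probe sets of a gene was not run, since each member had 1.

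Signs changed for members at -0.10 to 0.055 as deposited and for CSN8. Under the 3'/5' covariate, Prosalpha2 was at 0.001, Prosbeta2 at 0.006, Prosbeta3 at 0.080, Prosbeta4 at 0.014, Prosbeta6 at 0.036, Rpn13 at 0.026, Rpn3 at 0.054, Rpn5 at 0.034, Rpn2 at -0.042 and Rpn8 at -0.0075. With array weights, Prosalpha2 was at 0.018, Prosbeta4 at 0.037, Prosbeta7 at 0.018, Rpn2 at -0.035, Rpn8 at -0.0071, Rpt2 at 0.061 and CSN8 at 0.034. With quantile normalization, Prosbeta7 was at 0.011, Rpt2 at 0.0185 and Rpt3 at 0.019, and with median centring Rpn2 at -0.15 and Rpn8 at -0.20. Without 1 array, Prosbeta3 ranged from -0.082 to 0.020, Prosbeta4 from -0.062 to 0.014, Prosbeta7 from -0.037 to 0.0051, Rpn1 from -0.0755 to 0.0066, Rpt2 from -0.034 to 0.024, Rpt3 from -0.074 to 0.021, Rpn2 from -0.008 to 0.10 and Rpn8 from -0.020 to 0.032. Without RD array 1 and HFD array 1, Prosbeta4, Prosbeta7, Rpt2 and Rpt3 were at 0.012, 0.0051, 0.0315 and 0.025. The cause was not tested.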
